A study of Homo sapiens with 12 samples.

Results

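A total of 35 genes of glycolysis and the hypoxia response, of 58219 genes in the expression table, were followed through neural differentiation of human embryonic stem cells. They were chosen by gene symbol, from a list that names glycolytic enzymes and known targets of the hypoxia response. By role they were 2 glucose transporters, 17 glycolytic enzymes, 3 regulators of glycolytic flux and 13 other targets of hypoxia-inducible factor (HIF). The cells were H9, an established human embryonic stem cell line, and the study asked what SOX21, a transcription factor of neural progenitors, does in early neural differentiation. Poly(A)-enriched RNA was sequenced at days 0, 4 and 8 in 12 libraries: S13 and S23, both labelled SOX21-/-, and WT1 and WT2, both wild type, at each day (written S13/S23 and WT1/WT2 below). The labels name no other allele, agent or treatment, do not say where the SOX21 gene was altered, and do not say whether S13 and S23, or WT1 and WT2, are separate clones or cultures. With n = 2 in each of 6 groups, the p-values therefore measure only the spread between these libraries, which may be technical.

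Glycolysis splits glucose into pyruvate and yields ATP without oxygen. Human pluripotent stem cells are known for a high glycolytic rate, and many of their enzymes exist as alternative forms encoded by separate genes whose use changes as cells differentiate. HIF is a transcription factor whose alpha subunit is hydroxylated by the EGLN oxygen sensors and then marked for destruction by VHL. When oxygen is scarce the subunit persists, pairs with ARNT and switches on glycolytic enzymes together with genes of blood vessel growth, mitophagy, collagen modification and growth restraint.

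Values were in TPM, a level per transcript length scaled to a common total. Read totals cannot be recovered from TPM, and sequencing depth is therefore unknown. Differences, with standard errors (SE), were taken between log2(TPM + 1) values, where changes of weakly expressed genes come out too small, and adjusted p-values are from limma over the 24248 genes that reached 1 TPM in at least 2 libraries. Of the 35 genes, 34 passed that filter; CA9, a carbonic anhydrase, reached 1 TPM only in S13 at day 8, with 1.26 TPM. SOX21 itself had 1.26 to 1.84 TPM over the 4 day 0 libraries and 69.9 to 253 TPM over the 8 later ones. It was not lower in S13/S23: the log2 difference from WT1/WT2 was 0.23 at day 0, -0.09 at day 4 and 0.23 at day 8 (SE 0.47 each, adjusted p = 1, 1 and 0.898), so the genotype is given here as the label states it. Day 0 libraries stood apart, with nuclear protein-coding genes holding 55.9% to 56.4% of the TPM, against 83.5% to 87.1% at days 4 and 8, and processed pseudogenes, transcribed ones included, holding 11.3% to 12.7%, against 0.775% to 0.956%. Most markers followed the labelled course: between days 0 and 4, 7 of 10 pluripotent cell markers fell in each genotype, while the other 3 rose. Of the neural progenitor markers, 10 of 11 rose in S13/S23 and 11 of 11 in wild type. Of all tested genes 48.1% rose and 12.5% fell in S13/S23, and 54.3% rose and 11.4% fell in wild type. As in any bulk sample, fewer cells of a type and less RNA per cell cannot be told apart.

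The promoters of the genes on which the results turn are shown from RefSeq (GRCh38.p14), as 250 bases before to 50 bases after the annotated start, read 5′ to 3′ on the gene's strand. EGLN3, an oxygen sensor gene (window chr14:33951025-33951324, minus strand), and ENO2, a neuronal enolase gene (window chr12:6914330-6914629, plus strand), were higher in S13/S23 at day 8. DDIT4, the gene of a growth inhibitor (window chr10:72273674-72273973, plus strand), changed its genotype difference between days. LDHA, a lactate dehydrogenase gene (window chr11:18394313-18394612, plus strand), fell the most of the 34 between days 0 and 4, while LDHB (window chr12:21657793-21658092, minus strand) codes for the other form of that enzyme. For LDHA the more upstream entry of 2 is shown. Capitals mark the core of the HIF recognition element, searched as ACGTG and GCGTG and, on the other strand, CACGT and CACGC. A run of CACGTG, which holds ACGTG on both strands and is also an E-box, counts as 1 site.
EGLN3: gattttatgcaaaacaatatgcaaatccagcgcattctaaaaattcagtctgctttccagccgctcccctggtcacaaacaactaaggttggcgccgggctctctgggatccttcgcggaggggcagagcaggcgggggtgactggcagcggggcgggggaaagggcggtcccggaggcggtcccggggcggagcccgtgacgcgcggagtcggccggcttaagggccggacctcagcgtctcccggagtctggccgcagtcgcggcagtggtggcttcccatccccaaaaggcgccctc
DDIT4: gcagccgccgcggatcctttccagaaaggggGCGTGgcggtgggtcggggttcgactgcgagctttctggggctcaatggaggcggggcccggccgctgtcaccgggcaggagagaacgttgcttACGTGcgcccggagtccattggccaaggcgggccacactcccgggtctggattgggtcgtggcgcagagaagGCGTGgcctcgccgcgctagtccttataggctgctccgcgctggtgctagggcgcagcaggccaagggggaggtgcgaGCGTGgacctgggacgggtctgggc
ENO2: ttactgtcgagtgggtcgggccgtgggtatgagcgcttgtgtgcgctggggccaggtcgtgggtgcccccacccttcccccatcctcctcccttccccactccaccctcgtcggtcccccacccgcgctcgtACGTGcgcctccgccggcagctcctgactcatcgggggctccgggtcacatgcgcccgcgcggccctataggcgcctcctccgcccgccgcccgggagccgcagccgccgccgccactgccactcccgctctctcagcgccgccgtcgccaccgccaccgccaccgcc
LDHA: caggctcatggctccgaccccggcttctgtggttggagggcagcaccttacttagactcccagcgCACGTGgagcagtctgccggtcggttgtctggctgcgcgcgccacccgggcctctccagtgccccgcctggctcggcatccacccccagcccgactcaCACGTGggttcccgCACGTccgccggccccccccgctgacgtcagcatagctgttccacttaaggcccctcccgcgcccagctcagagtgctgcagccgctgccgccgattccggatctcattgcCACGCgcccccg
LDHB: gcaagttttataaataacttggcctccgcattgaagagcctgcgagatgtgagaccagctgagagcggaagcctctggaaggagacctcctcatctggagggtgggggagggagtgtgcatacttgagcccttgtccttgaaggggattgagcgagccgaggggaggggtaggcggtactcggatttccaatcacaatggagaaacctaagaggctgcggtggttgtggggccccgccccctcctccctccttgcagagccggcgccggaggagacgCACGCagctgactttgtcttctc
The windows above held 0 sites for EGLN3, 4 for DDIT4, 1 for ENO2, 4 for LDHA and 1 for LDHB. Promoter entries matched 31 of the 35 genes; SLC2A3, VEGFA, NDRG1 and BNIP3L had none. At least 1 site was present in 74.2% of these 31 windows, against 48.4% of the 27305 windows of all genes, and at least 2 sites in 25.8%, against 20.04%. Among the other HIF targets 8 of 10 windows held a site, and among the glycolytic enzymes 12 of 17. These are matches of letters and say nothing of binding. In GENCODE 29 (GRCh38) the protein-coding genes themselves span chr14:33924231-34462774 for EGLN3, chr10:72273920-72276036 for DDIT4, chr12:6913745-6923698 for ENO2, chr11:18394388-18408425 for LDHA and chr12:21635342-21757857 for LDHB.

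**Figure D1:**
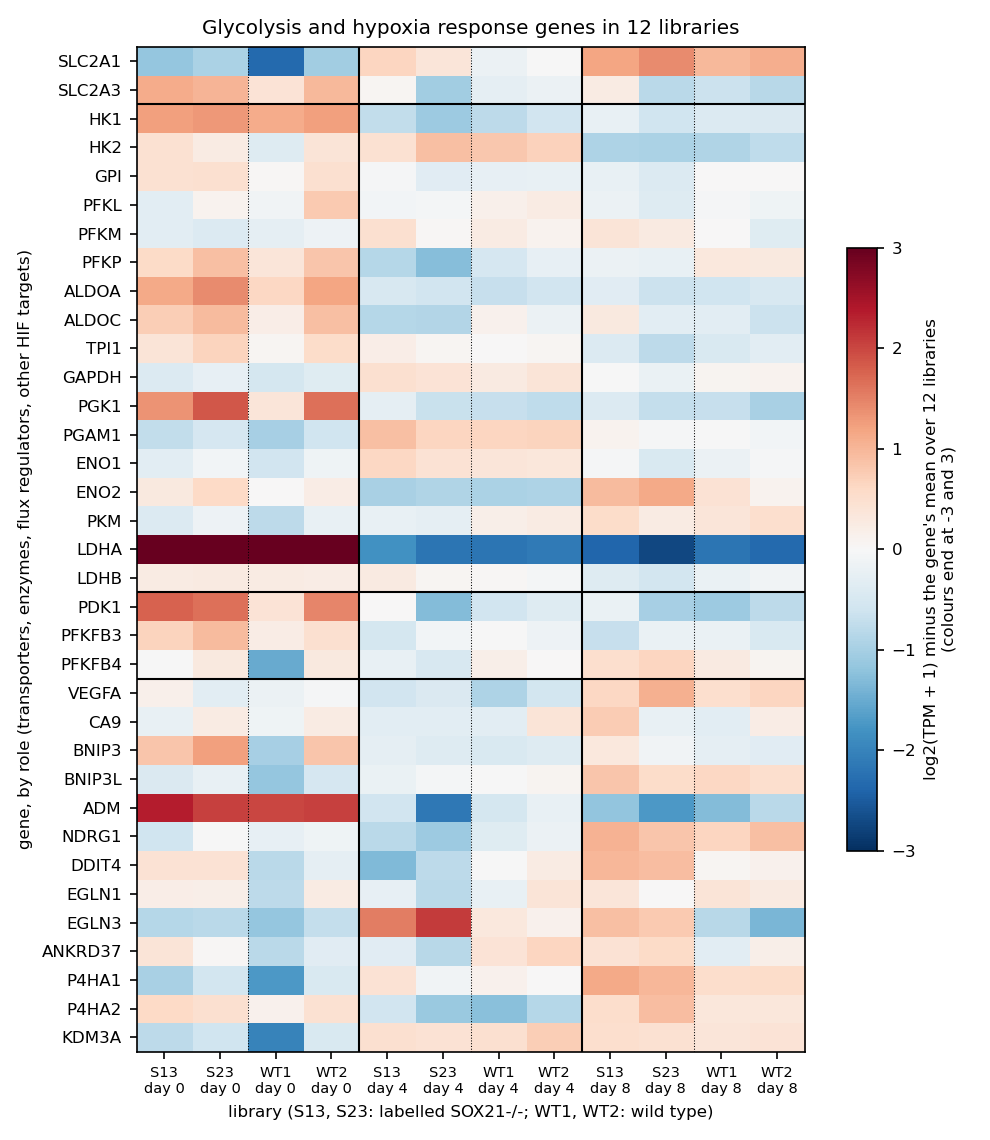
Each row is 1 of the 35 genes, grouped by role, and each column 1 of the 12 libraries by day, with S13/S23 left of WT1/WT2; colour is log2(TPM + 1) minus the gene's mean over the 12 libraries, ending at -3 and 3. LDHA, ADM and PGK1 were higher at day 0 than later, EGLN3 was highest in S13/S23 at day 4, and WT1 at day 0 is paler or bluer than WT2 in nearly every row.

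The highest means in every group were those of enzymes, while others of the 17, such as ALDOC and HK2, ranked among or below the other HIF targets. In S13/S23 at day 0 the highest mean was that of LDHA, 4372 ± 612 TPM (SD, n = 2), followed by GAPDH, the dehydrogenase of the middle of the pathway, with 1855 ± 139 TPM and LDHB with 1616 ± 12.4 TPM. The order was the same in wild type at day 0, where LDHA averaged 3255 ± 1780 TPM and GAPDH 1718 ± 145 TPM. Within each library LDHA was above GAPDH, with 1997 and 4514 TPM in WT1/WT2, against 1615 and 1820 TPM. With n = 2 and this spread of LDHA, the order in further libraries is not secure. At days 4 and 8 GAPDH led in both genotypes, LDHB came next and ENO1, the common enolase, after it. The 17 enzymes together held 0.874% to 1.42% of all TPM at day 0 and 0.598% to 0.907% afterwards. The 13 other HIF targets held 0.0132% to 0.0272% at day 0 and 0.0223% to 0.0391% later.

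At day 4, 1 of the 34 tested genes differed between the genotypes. EGLN3, which codes for a prolyl hydroxylase that marks HIF alpha and is itself switched on by HIF, had 50.2 and 74.4 TPM in S13/S23, against 21.0 and 18.5 TPM in WT1/WT2. Both libraries labelled SOX21-/- lay above both wild-type libraries, and the log2 difference was 1.58 (SE 0.24, adjusted p = 0.0358). Of all tested genes 0.239% were called higher and 0.536% lower at day 4. The EGLN3 call was lost in 9 of the 12 fits that left out 1 library, with adjusted p up to 0.193 and log2 differences between 1.31 and 1.86, the lowest without S23 at day 4; it held without S13 at day 4 and without WT1 or WT2 at day 8. It was also lost when day 0 was left out of the fit (adjusted p = 0.0801) and when the day 4 libraries were fitted alone (adjusted p = 0.173). The protein-coding gene SPTSSA, which the annotation places on the same strand within the span of EGLN3, had 32.0 and 27.8 TPM in S13/S23, against 32.8 and 27.4 TPM in WT1/WT2.

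At day 8, EGLN3 and ENO2 were higher in the libraries labelled SOX21-/-, and none of the 34 was called lower by limma. An unadjusted p under 0.05, in either direction, was found for 6 of the 34 and for 3944 of 24248 tested genes. EGLN3 had 32.4 and 29.8 TPM in S13/S23, against 8.93 and 5.91 TPM in WT1/WT2, a log2 difference of 1.95 (SE 0.24, adjusted p = 0.00554). ENO2, the enolase known from neurons, had 165 and 188 TPM in S13/S23, against 115 and 90.8 TPM in WT1/WT2, a difference of 0.78 (SE 0.14, adjusted p = 0.0279). The groups did not overlap for either gene. Among all tested genes 1.47% were called higher and 1.32% lower. The EGLN3 call at day 8 held in all 12 fits that left out 1 library and was lost when the day 8 libraries were fitted alone (adjusted p = 0.0799). The ENO2 call was lost in 5 of those 12 fits (without S13, S23 or WT2 at day 8, and without WT1 or WT2 at day 4), with adjusted p up to 0.164 and log2 differences between 0.61 and 0.95, and also with moderation without the trend (adjusted p = 0.0550) and with the day 8 libraries alone (adjusted p = 0.147). The summed level of 8 neuron markers, most of it from TUBB3, was 141 to 190 TPM in S13/S23 at day 8, against 271 to 284 TPM in WT1/WT2, with 7 markers at 1 TPM or more in each library labelled SOX21-/- and 6 in each wild-type library, and DCX, a defining marker, was called lower (-2.49, SE 0.30, adjusted p = 0.00554). Of the 7 tested, 2 were above wild type as ENO2 was, neither of them called: ELAVL3 had 9.16 and 2.69 TPM in S13/S23, against 1.504 and 1.40 TPM in WT1/WT2, and ELAVL4 had 2.95 and 2.05 TPM in S13/S23, against 0.828 and 0.259 TPM in WT1/WT2. Their part in the ENO2 result was not tested.

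**Figure D2:**
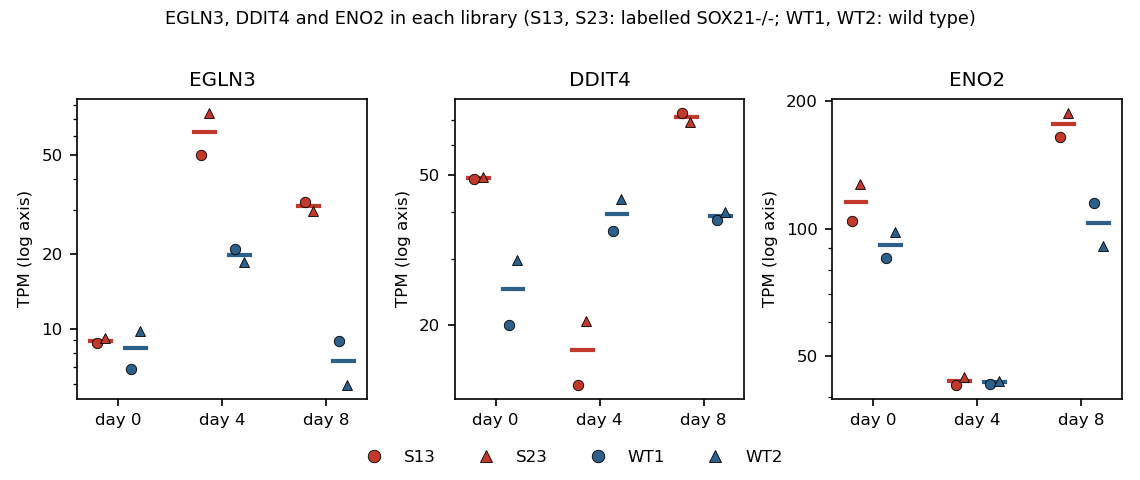
Points are the TPM of EGLN3, DDIT4 and ENO2 in each library on a log axis, by day, with S13/S23 (labelled SOX21-/-) in red left of WT1/WT2 (wild type) in blue; horizontal bars are group means. EGLN3 separates at days 4 and 8, ENO2 most at day 8, and DDIT4 is above wild type at days 0 and 8 and below it at day 4.

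DDIT4, whose product restrains the growth kinase mTORC1 under low oxygen and other stresses, was the gene whose genotype difference changed between days. At day 0 it had 48.9 and 49.4 TPM in S13/S23, against 20.1 and 29.8 TPM in WT1/WT2. At day 4 it had 13.9 and 20.5 TPM in S13/S23, against 35.6 and 43.1 TPM in WT1/WT2. At day 8 it had 73.2 and 69.1 TPM in S13/S23, against 38.0 and 39.9 TPM in WT1/WT2. The groups were apart at each day, with the libraries labelled SOX21-/- above wild type at days 0 and 8 and below it at day 4. No single day passed the test (log2 differences 0.98, -1.17 and 0.85 at days 0, 4 and 8, SE 0.21 each, adjusted p = 0.213, 0.0569 and 0.0788). The change of the difference did: -2.14 between days 0 and 4 (SE 0.30, adjusted p = 0.0334) and 2.02 between days 4 and 8 (SE 0.30, adjusted p = 0.0268). Both changes use the day 4 libraries, so they are not separate evidence. Of all tested genes, 0.169% had a positive and 0.239% a negative change called between days 0 and 4, and 0.788% and 0.326% between days 4 and 8.

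The sign of both DDIT4 changes was the same under every alternative run, while the call was lost in 10 of 12 fits that left out 1 library between days 0 and 4 (adjusted p up to 0.131) and in 9 of 12 between days 4 and 8 (adjusted p up to 0.109). It held without S23 at day 4 or WT2 at day 0 in the earlier step, and without S23 at day 4 or either wild-type library of day 0 in the later one. Fitted without the remaining day, both calls were lost (adjusted p = 0.111 between days 0 and 4 and 0.0603 between days 4 and 8). The transcript DDIT4-AS1, which overlaps DDIT4 on the opposite strand, had 21.4 and 22.7 TPM in S13/S23 at day 0, against 9.09 and 15.1 TPM in WT1/WT2, and was listed at 0 in all 8 later libraries. Whether counting used strand was not stated, and at day 0 reads of the 2 genes may not be told apart.

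At day 0 none of the 34 genes was called by limma at an adjusted p of 0.05, when 0.384% of all tested genes were called in either direction. An unadjusted p under 0.05 was found for 5 of the 34 and for 1425 of 24248 tested genes. In 31 of 34 the mean was nonetheless above wild type, with a median log2 difference of 0.30, while 12345 of 24248 tested genes were positive and their median was 0. BNIP3, which tags mitochondria for removal, had 55.4 and 74.4 TPM in S13/S23, against 15.0 and 55.7 TPM in WT1/WT2 (1.12, SE 0.48, adjusted p = 0.833). PFKL, the liver form of phosphofructokinase, had 47.3 and 64.5 TPM in S13/S23, against 54.9 and 103 TPM in WT1/WT2 (-0.44, SE 0.26, adjusted p = 1). PFKM, the muscle form, had 101 and 94.9 TPM in S13/S23, against 104 and 114 TPM in WT1/WT2 (-0.15, SE 0.16, adjusted p = 1). The groups overlapped for BNIP3 and PFKL and were narrowly apart for PFKM. BNIP3 has 39 processed pseudogenes in the table, which summed to 9.38 to 29.3 TPM, so its level is uncertain.

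WT1 at day 0 stood apart in these genes. It was lower than WT2 in 33 of the 34 genes, with a median log2 difference of -0.53, while the median over all tested genes was 0. The enzymes had a median of -0.45 and the other HIF targets of -0.51 in that comparison of wild-type libraries. LDHA had 1997 TPM in WT1 and 4514 TPM in WT2, PGK1, a kinase that makes ATP in glycolysis, had 352 TPM in WT1 and 872 TPM in WT2, and KDM3A, a HIF-induced histone demethylase, had 7.21 TPM in WT1 and 22.9 TPM in WT2. In the other 5 groups the same median ran from -0.20 to 0.22. Without WT1 at day 0 the genotype median of the 34 genes was -0.02, with 14 positive and 0 called; without WT2 at day 0 it was 0.56, with 32 positive and 4 called.

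**Figure D3:**
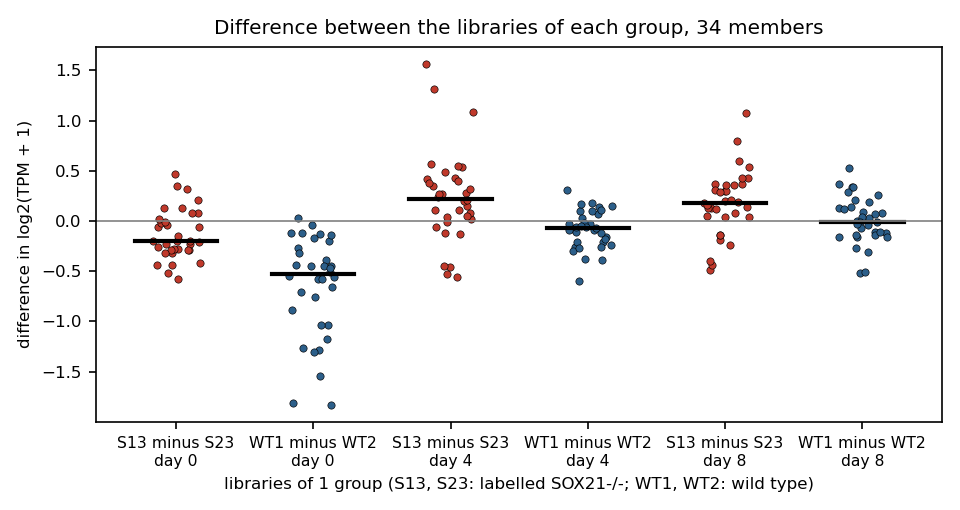
Each point is 1 of 34 genes, plotted as the difference in log2(TPM + 1) between the 2 libraries of a group, with S13 minus S23 left of WT1 minus WT2 at each day; black bars are medians. WT1 minus WT2 at day 0 has a median of -0.53 and 33 points below 0, and the other medians lie between -0.20 and 0.22.

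At day 8 the genotype differences of the enzymes centred near 0 and those of the other HIF targets above it. At that day the median log2 difference was -0.10 over the 17 enzymes, with 7 positive and 1 called (ENO2), and 0.33 over the 12 other HIF targets tested, with 10 positive and 1 called (EGLN3), while 11497 of 24248 tested genes were positive and their median was 0. Over the 2 glucose transporters it was 0.36 and over the 3 flux regulators 0.34, with 0 called in either. PFKP, the platelet form of phosphofructokinase, stood lowest among the enzymes at day 8 with 43.0 and 41.6 TPM in S13/S23, against 61.3 and 59.6 TPM in WT1/WT2, groups that did not overlap (-0.50, SE 0.19, adjusted p = 0.241). ADM, the gene of the vessel-relaxing peptide adrenomedullin, stood lowest among the other HIF targets with 1.75 and 0.890 TPM in S13/S23, against 1.50 and 2.57 TPM in WT1/WT2, groups that overlapped (-0.39, SE 0.45, adjusted p = 0.761). LDHB was among the enzymes below wild type, with 1036 and 928 TPM in S13/S23, against 1178 and 1267 TPM in WT1/WT2 (-0.32, SE 0.08, adjusted p = 0.0959). Over every alternative fit the day 8 median stayed between 0.22 and 0.36 for the other HIF targets and between -0.20 and 0.08 for the enzymes. No test of the difference between the lists was made, because the members of a list are not replicates.

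At day 4 the medians were 0.09 over the enzymes, with 11 of 17 positive, and -0.16 over the other HIF targets, with 5 of 12 positive, and that of all tested genes was -0.12. With median-of-ratios scaling the medians were 0.25 over the enzymes and 0.01 over the other HIF targets. Below EGLN3 the order at day 4 was led by values under wild type that did not pass: DDIT4 and ANKRD37, a nuclear ankyrin-repeat gene switched on by HIF. ANKRD37 had 2.03 and 1.16 TPM in S13/S23 at day 4, against 4.10 and 5.003 TPM in WT1/WT2 (-1.11, SE 0.27, adjusted p = 0.105). At day 8 the same gene had 4.19 and 4.72 TPM in S13/S23, against 2.08 and 3.37 TPM in WT1/WT2, so its groups were apart on opposite sides, and the change between these days was 1.68 (SE 0.39, adjusted p = 0.0875). The estimated change of the genotype difference between days 4 and 8 was positive in 12 of 12 other HIF targets, with a median of 0.41 and 1 called (DDIT4), and in 8 of 17 enzymes, with a median of -0.03 and 0 called. Over all tested genes 14410 of 24248 were positive and the median was 0.12. With median-of-ratios scaling the counts of positive estimates were 11 of 12 and 6 of 17, and with quantile normalization 10 of 12 and 5 of 17. A separate list of 28 further HIF targets, described below, had 14 positive and 14 negative estimates on the TPM as deposited. Its median was 0.05, with 0 called, so the shared positive sign did not extend to that list.

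**Figure D4:**
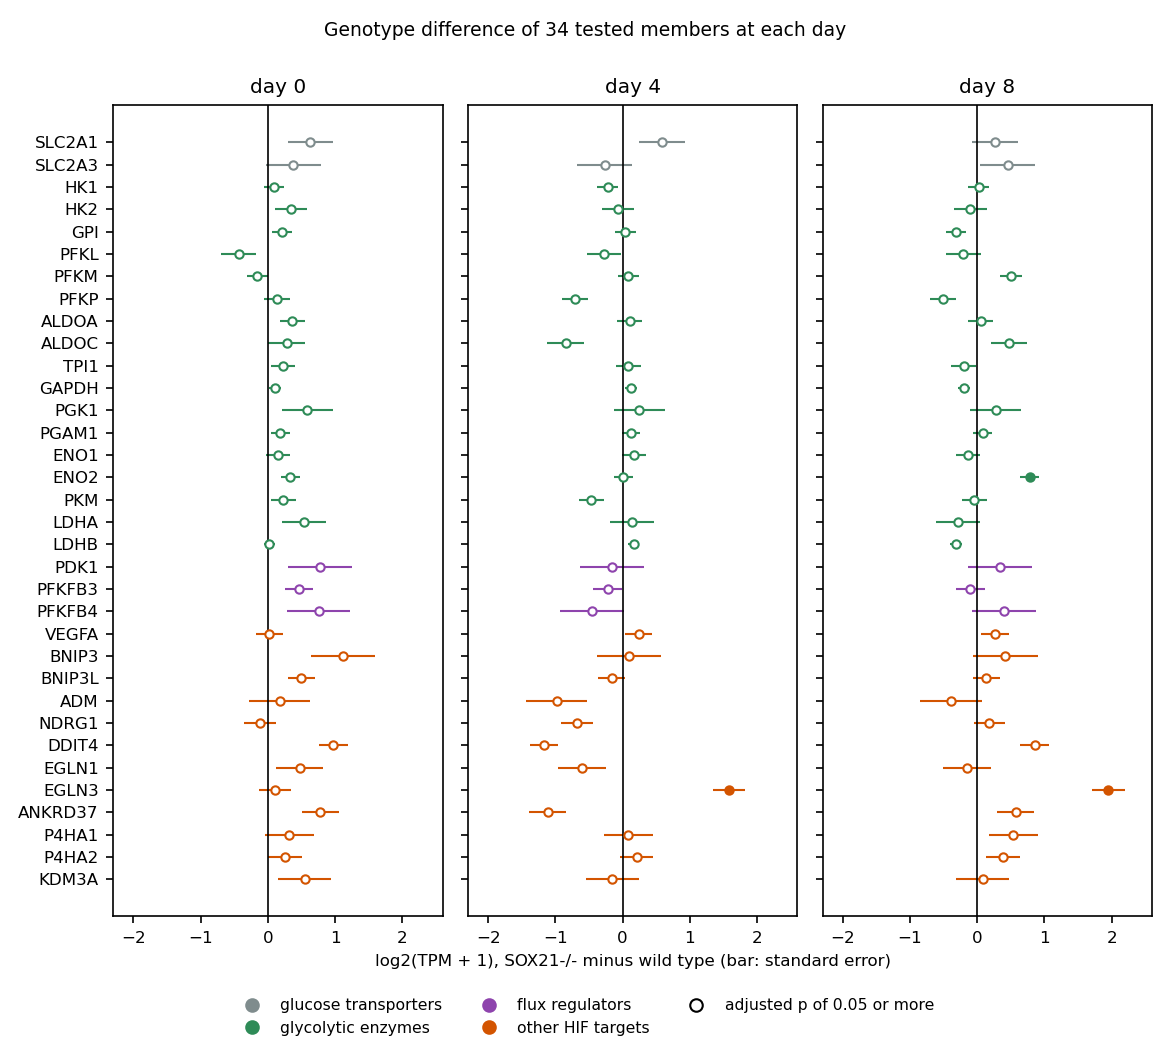
Points are log2(TPM + 1) in S13/S23 minus WT1/WT2 for the 34 tested genes at each day, coloured by role, with standard errors as bars; filled points passed an adjusted p of 0.05. EGLN3 at days 4 and 8 and ENO2 at day 8 are filled, the enzymes lie from -0.50 (PFKP) to 0.78 (ENO2) at day 8 with a median of -0.10, and 10 of 12 other HIF targets lie to the right of it.

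The step from day 0 to day 4 changed far more of these genes than the genotype did. In S13/S23, 7 rose and 17 fell, and in WT1/WT2, 12 rose and 12 fell. Read against all tested genes this was a skew downward: in S13/S23 48.1% of all tested genes rose and 12.5% fell, with a median log2 change of 0.72, and in wild type 54.3% rose and 11.4% fell, with a median of 0.91. The medians of the 34 genes were -0.65 and -0.18. WT1 at day 0, lower than WT2 in 33 of the 34 genes, enters the wild-type step and lowers its starting mean. The makeup of the day 0 libraries, given above, moves with this step and its part was not tested. With median-of-ratios scaling, 1 rose and 29 fell in S13/S23, and 0 rose and 24 fell in WT1/WT2. The shares of all tested genes above are for the TPM as deposited, so these counts cannot be read against them. All 17 and all 12 decreases kept their direction under each of the 3 other scalings, but of the increases 3 of 7 and 4 of 12 did.

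LDHA, the lactate-forming dehydrogenase subunit, fell the furthest. It had 3939 and 4805 TPM in S13/S23 at day 0, 44.4 and 34.02 TPM at day 4, and 30.2 and 23.2 TPM at day 8. In WT1/WT2 it had 1997 and 4514 TPM at day 0, 34.5 and 35.9 TPM at day 4, and 34.2 and 31.0 TPM at day 8. The day 4 libraries lay far below all day 0 libraries in both genotypes, with log2 changes of -6.77 in S13/S23 (SE 0.33, adjusted p = 7.42e-07) and -6.37 in wild type (SE 0.33, adjusted p = 8.66e-07). Its 6 processed pseudogenes in the table summed to at most 2.33 TPM in any library. LDHB stayed between 1305 and 1625 TPM over the 8 libraries of days 0 and 4, and LDHA made up 55.4% to 74.7% of the summed TPM of both genes at day 0, against 2.36% to 2.83% at days 4 and 8.

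Of the upstream enzymes, HK1, the housekeeping hexokinase, fell between days 0 and 4 under every scaling, while the direction of HK2, the inducible form, depended on the scaling. HK1 had 101 and 106 TPM in S13/S23 at day 0, 25.1 and 19.5 TPM at day 4, and 36.0 and 27.9 TPM at day 8, and in WT1/WT2 93.3 and 101 TPM, 24.1 and 28.0 TPM, and 31.6 and 31.0 TPM at the same days. Its log2 change from day 0 to day 4 was -2.18 in S13/S23 (adjusted p = 4.65e-06) and -1.86 in wild type (adjusted p = 9.76e-06). HK2 had 27.7 and 23.8 TPM in S13/S23 at day 0, 27.7 and 38.6 TPM at day 4, and 10.2 and 9.82 TPM at day 8, and in WT1/WT2 15.2 and 26.3 TPM, 35.6 and 33.1 TPM, and 10.2 and 11.5 TPM. Between days 0 and 4 the HK2 change was 0.34 in S13/S23 (adjusted p = 0.266) and 0.75 in wild type (adjusted p = 0.0234), on the TPM as deposited. With median-of-ratios scaling HK2 was called lower in S13/S23 (-0.87, adjusted p = 0.0169), and its change in wild type was -0.64 (adjusted p = 0.0552). HK2 fell between days 4 and 8 in both genotypes, with changes of -1.62 in S13/S23 (adjusted p = 0.00256) and -1.58 in wild type (adjusted p = 0.00599). Its share of the 2 hexokinases was 14.0% to 21.5% at day 0, 52.5% to 66.5% at day 4 and 22.0% to 27.0% at day 8.

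Further down the pathway, ALDOA, the main aldolase, fell between days 0 and 4 (-1.80 in S13/S23, -1.54 in wild type), and so did PGK1 (-2.08 and -1.74). PGAM1, which shifts the phosphate of phosphoglycerate, rose: it had 194 and 227 TPM in S13/S23 at day 0, 597 and 507 TPM at day 4, and 346 and 315 TPM at day 8. In WT1/WT2 it had 161 and 211 TPM, 499.9 and 509 TPM, and 320.1 and 303 TPM at those days. The rise was 1.39 in S13/S23 (adjusted p = 3.59e-05) and 1.45 in wild type (adjusted p = 2.49e-05), but 0.15 and 0.01 with median-of-ratios scaling. GAPDH and ENO1 rose by 0.78 and 0.73 in S13/S23 and by 0.76 and 0.71 in wild type, about as much as the median of all genes in S13/S23 and less than it in wild type, and with median-of-ratios scaling all 4 changes were negative. At day 0 AC006064.4, an antisense transcript that overlaps GAPDH, had 817 to 918 TPM, against at most 2.82 TPM later, and GAPDH pseudogenes summed to 52.4 to 62.4 TPM, against at most 7.71 TPM later, so the day 0 level of GAPDH is uncertain.

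ENO2 fell and then rose. It had 104 and 127 TPM in S13/S23 at day 0, 42.6 and 44.6 TPM at day 4, and 165 and 188 TPM at day 8, and in WT1/WT2 85.1 and 98.2 TPM, 42.9 and 43.7 TPM, and 115 and 90.8 TPM. The 4 libraries of day 4 lay close together, and the groups did not overlap at days 0 and 8. The step from day 4 to day 8 was 1.99 in S13/S23 (adjusted p = 0.000149) and 1.22 in wild type (adjusted p = 0.00201), and the difference between these steps was 0.77 (SE 0.20, adjusted p = 0.115), which did not pass. ENO1 went the opposite way after day 4 in S13/S23, with 636 and 746 TPM at day 0, 1219 and 1065 TPM at day 4, and 774 and 576 TPM at day 8 (-0.77, adjusted p = 0.015). In WT1/WT2 ENO1 had 531 and 719 TPM, 1021 and 1002 TPM, and 696 and 775 TPM (-0.46 from day 4 to day 8, adjusted p = 0.131). The ENO2 share of both enolases was 17.6% and 24.6% in S13/S23 at day 8, against 14.2% and 10.5% in WT1/WT2, and 3.38% to 4.18% over the 4 libraries of day 4.

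**Figure D5:**
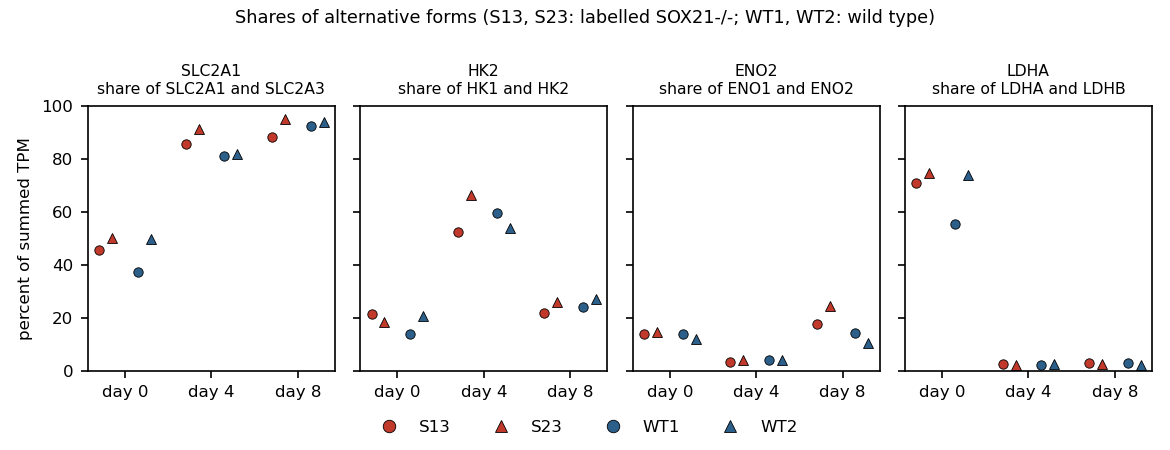
Points are the percent of summed TPM taken by 1 of a pair of alternative genes in each library, by day, with S13/S23 (labelled SOX21-/-) in red left of WT1/WT2 (wild type) in blue. The LDHA share is 55.4% to 74.7% at day 0 and at most 2.83% later, the SLC2A1 share is at least 81.3% from day 4, and the HK2 share is highest at day 4.

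The balance of the glucose transporters shifted towards SLC2A1. SLC2A1, the common transporter GLUT1, had 117 and 135 TPM in S13/S23 at day 0, 408 and 336 TPM at day 4, and 597 and 706 TPM at day 8. In WT1/WT2 it had 51.4 and 126 TPM, 232 and 260 TPM, and 519 and 562 TPM. It rose between days 0 and 4 by 1.55 in S13/S23 (adjusted p = 0.00371) and by 1.60 in wild type (adjusted p = 0.00289), though by 0.32 and 0.17 with median-of-ratios scaling. SLC2A3, the high-affinity transporter GLUT3, fell by 1.56 in S13/S23 (adjusted p = 0.00963), and its change in wild type was -0.91 (adjusted p = 0.0787). SLC2A1 made up 37.4% to 50.3% of the summed TPM of both at day 0, 81.3% to 91.6% at day 4 and 88.5% to 95.1% at day 8. SLC2A3 pseudogenes summed to at most 0.116 TPM at day 0 and to 0.145 to 9.69 TPM later, up to 26.7% of the level of SLC2A3. The later level of SLC2A3, and this share, are therefore less certain.

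Among the flux regulators PDK1, the kinase that switches off pyruvate dehydrogenase, fell between days 0 and 4 in both genotypes. It had 35.1 and 32.1 TPM in S13/S23 at day 0, 9.70 and 3.31 TPM at day 4, and 8.20 and 4.31 TPM at day 8, and in WT1/WT2 13.1 and 28.0 TPM, 6.14 and 7.10 TPM, and 3.98 and 5.16 TPM. The changes were -2.35 (adjusted p = 0.0025) in S13/S23 and -1.41 (adjusted p = 0.0277) in wild type. An antisense transcript that overlaps PDK1, AC078883.1, had 2.86 and 6.24 TPM in S13/S23 at day 4, against 3.39 and 6.06 TPM in WT1/WT2. At day 8 this transcript had 15.6 and 17.8 TPM in S13/S23, against 4.03 and 3.82 TPM in WT1/WT2. The level of PDK1 at days 4 and 8 is therefore uncertain. PFKFB3, which makes the activator of phosphofructokinase, fell by 1.11 in S13/S23 (adjusted p = 0.00179), with a change of -0.42 in wild type (adjusted p = 0.111). PFKFB4, of the same enzyme family, was called in neither step.

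On the TPM as deposited, the other HIF targets changed in both directions between days 0 and 4. In S13/S23 2 of 12 rose and 6 fell, with a median of -0.68, and in wild type 6 rose and 3 fell, with a median of 0.51. The wild-type start includes WT1 at day 0, whose median difference from WT2 over these targets was -0.51, which limits this contrast of the genotypes. With median-of-ratios scaling the medians were -1.68 in S13/S23, with 1 of 12 positive, and -0.81 in wild type, with 2 of 12 positive, so the wild-type median turned. It was also negative with quantile normalization (-0.38) and with nuclear protein-coding genes only (-0.18). ADM fell the furthest: it had 30.9 and 24.6 TPM in S13/S23 at day 0, 3.17 and 0.413 TPM at day 4, and 1.75 and 0.890 TPM at day 8. In WT1/WT2 it had 24.0 and 24.7 TPM, 3.32 and 4.30 TPM, and 1.50 and 2.57 TPM. Its changes of -3.56 in S13/S23 (adjusted p = 0.00016) and -2.40 in wild type (adjusted p = 0.00153) held in each alternative. EGLN3 rose by 2.65 in S13/S23 (adjusted p = 2.01e-05), and its change in wild type was 1.17 (adjusted p = 0.00238), or -0.16 with median-of-ratios scaling. KDM3A had 18.1 and 21.0 TPM in S13/S23 at day 0, 44.7 and 43.6 TPM at day 4, and 45.5 and 44.2 TPM at day 8, and in WT1/WT2 7.21 and 22.9 TPM, 44.9 and 54.0 TPM, and 41.7 and 43.0 TPM. It rose by 1.14 in S13/S23 (adjusted p = 0.0332) and by 1.84 in wild type (adjusted p = 0.00302), though with median-of-ratios scaling the changes were -0.06 in S13/S23 and 0.47 in wild type. The values of KDM3A at days 4 and 8 hardly separate the genotypes.

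DDIT4 and ANKRD37 were the genes called in opposite directions in the genotypes over this step. DDIT4 fell by 1.49 in S13/S23 (adjusted p = 0.00031) and rose by 0.66 in wild type (adjusted p = 0.023), although with median-of-ratios scaling and quantile normalization the wild-type change was -0.74 and -0.20. ANKRD37 fell by 0.81 in S13/S23 (adjusted p = 0.0303) and rose by 1.08 in wild type (adjusted p = 0.00735), and its levels were low, at most 5.003 TPM in any library. With median-of-ratios scaling its wild-type change was 0.04 (adjusted p = 0.929) and with quantile normalization 0.25 (adjusted p = 0.495), so the rise was not called there. The difference between the steps was -1.89 for ANKRD37 (SE 0.39, adjusted p = 0.118), which did not pass, and that for DDIT4 is given above.

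Between days 4 and 8 genes of both lists were called in each direction. In S13/S23 6 of 12 other HIF targets rose and 1 fell, with a median of 0.87, while 5 of 17 enzymes rose and 6 fell, with a median of -0.13. In WT1/WT2 3 other HIF targets rose and 1 fell, with a median of 0.18, and 1 enzyme rose and 2 fell, with a median of -0.14. Over all 34 genes 11 rose and 7 fell in S13/S23, when 19.0% of all tested genes rose and 7.15% fell (median 0.20), and 4 rose and 3 fell in wild type, when 7.62% rose and 4.99% fell (median 0.03). With median-of-ratios scaling the counts were 5 and 7 in S13/S23 and 3 and 3 in wild type, which cannot be read against these shares of the TPM as deposited. Every change called on the TPM as deposited kept its direction under the 3 other scalings. The count of called genes in S13/S23 fell to 10 without S23 at day 4 and 11 without S13 at day 8, and that in wild type to 3 or 4 without any 1 of its 4 libraries of these days. A difference between the lists was not tested.

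VEGFA, the growth factor of blood vessels, P4HA2, a collagen prolyl hydroxylase, and NDRG1, a stress-responsive gene, rose in both genotypes over this step. VEGFA had 27.5 and 19.5 TPM in S13/S23 at day 0, 16.2 and 17.9 TPM at day 4, and 38.5 and 52.4 TPM at day 8, and in WT1/WT2 21.7 and 23.9 TPM, 12.4 and 16.4 TPM, and 35.5 and 39.1 TPM. The rise from day 4 to day 8 was 1.35 (adjusted p = 0.00278) in S13/S23 and 1.32 (adjusted p = 0.00635) in wild type, with every day 8 library above every day 4 library. At day 0 AL136131.3, an antisense transcript that overlaps VEGFA, had 45.0 to 112 TPM, against at most 0.228 TPM later. The day 0 level of VEGFA is therefore uncertain. P4HA2 had 4.99 and 4.47 TPM in S13/S23 at day 0, 1.63 and 0.804 TPM at day 4, and 4.70 and 6.49 TPM at day 8, and in WT1/WT2 3.30 and 4.37 TPM, 0.650 and 1.16 TPM, and 3.98 and 4.01 TPM (1.58, adjusted p = 0.00335, and 1.41, adjusted p = 0.0112). NDRG1 had 1.55 and 2.80 TPM in S13/S23 at day 0, 1.19 and 0.817 TPM at day 4, and 6.98 and 5.90 TPM at day 8, and in WT1/WT2 2.23 and 2.53 TPM, 1.97 and 2.43 TPM, and 4.97 and 6.17 TPM (1.89, adjusted p = 0.00119, and 1.04, adjusted p = 0.0262). All 3 were lowest at day 4 by group mean in both genotypes. EGLN3 went against them and fell, with changes of -0.95 in S13/S23 (adjusted p = 0.0212) and -1.32 in wild type (adjusted p = 0.0114), and DDIT4 rose by 2.01 in S13/S23 (adjusted p = 0.000624), with a change of -0.01 in wild type.

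Genes outside the 35 that belong to the same pathways were counted for comparison. Of 11 genes of the HIF machinery, 0 were called between the genotypes at any day, and of 18 other genes of glycolysis and lactate transport, 24 of pyruvate oxidation and the citrate cycle and 7 of the pentose phosphate pathway, likewise 0 by limma. At an unadjusted p under 0.05 each of these lists held between 0 and 3 genes at each day. Of all 24248 tested genes 1425, 4107 and 3944 were under it at days 0, 4 and 8. HIF1A, the oxygen-labile subunit, had 161 and 150 TPM in S13/S23 at day 4, against 156 and 165 TPM in WT1/WT2, and at day 8 121 and 99.2 TPM in S13/S23, against 108 and 99.6 TPM in WT1/WT2. Of 28 further HIF targets, 2 were called higher in S13/S23 at day 8: CITED2, which competes with HIF for its coactivator, with 126 and 93.8 TPM in S13/S23, against 42.6 and 37.0 TPM in WT1/WT2 (1.43, SE 0.14, adjusted p = 0.00221), and GBE1, the glycogen branching enzyme, with 12.2 and 11.6 TPM in S13/S23, against 5.43 and 3.95 TPM in WT1/WT2 (1.19, SE 0.25, adjusted p = 0.0475). None of the 28 was called lower, their median was 0.04, and 15 were positive. With 1.47% of all tested genes called higher and 1.32% lower at day 8, lists of this size hold few calls or none at the background share.

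On the TPM as deposited, many of the metabolic genes outside the 35 rose between days 0 and 4, as did 48.1% of all tested genes in S13/S23 and 54.3% in wild type. Counts and medians of these lists were taken on that scale only. In S13/S23 18 of 24 genes of pyruvate oxidation and the citrate cycle rose and 2 fell, with a median of 0.88, close to the 0.72 of all tested genes, and in wild type 18 rose and 2 fell, with a median of 0.76, below the 0.91 of all tested genes. DLD, a subunit shared by the dehydrogenase complexes, rose by 1.95 in S13/S23 and by 1.80 in wild type. PDP1, the phosphatase that reactivates pyruvate dehydrogenase, rose by 2.04 in S13/S23 and was not called in wild type, where it had 9.34 and 5.15 TPM at day 0 and 8.34 and 9.85 TPM at day 4. MDH2, the mitochondrial malate dehydrogenase (-0.82 and -0.87), and SDHB, a subunit of succinate dehydrogenase (-0.64 and -0.67), fell. Of the other glycolysis and lactate genes 11 of 18 rose and 4 fell in S13/S23, and 13 rose and 3 fell in wild type, and of the pentose phosphate pathway 5 of 7 rose and 2 fell in each. In the HIF machinery 6 of 11 rose in each genotype, a share near that of all tested genes, led by ARNT2, a partner subunit of HIF alpha (2.30 in S13/S23, 2.40 in wild type), and VHL (1.93 and 2.09). Of 28 further HIF targets 9 rose and 6 fell in S13/S23, and 12 rose and 6 fell in wild type. AK4, an adenylate kinase (-2.97 and -2.49), and PLOD2, a collagen lysyl hydroxylase (-2.11 and -2.21), had the largest decreases among them. From day 4 to day 8 HIF1A fell, with changes of -0.50 in S13/S23 (adjusted p = 0.0113) and -0.63 in wild type (adjusted p = 0.00909), while ARNT rose by 0.66 and by 0.81.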

How the data were processed

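Poly(A)-enriched RNA of 12 libraries was measured as gene-level TPM, deposited by the authors; per the submitters' processing notes CASAVA 1.7, Salmon 0.8.2 and the hg38 build were used. The annotation release and strand setting are not given in the sources used here. TPM keeps no read totals, and depth and the precision it gives are unknown. The 35 genes and the other gene lists were chosen with earlier results of these data known. Groups came from the sample titles, and 0 columns belonged to other series. Gene types came from the deposited expression table. Gene positions, and the types of overlapping genes, came from GENCODE 29, which matched 57881 of 58219 gene IDs. Genes with at least 1 TPM in at least 2 libraries were fitted as log2(TPM + 1) with limma 3.58.1 in R 4.3.3 (a mean per group, trended variance, 6 residual degrees of freedom), with two-sided Benjamini-Hochberg adjusted p-values called under 0.05. The fit was tested on simulated data. Values per library are given for every gene called in a genotype comparison or interaction, and for the largest changes each way in each comparison. Alternatives covered pseudocount, filter, scaling, pseudogenes, variance model, libraries fitted, line number and leaving out each library; summing overlapping antisense genes was added after seeing the data.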

Additional observations from a re-analysis of the deposited data

Results flagged for a closer look

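DDIT4 is listed here because its genotype difference was not the same at each day by the interaction test of limma. The difference between S13/S23 (labelled SOX21-/-) and wild type moved by -2.14 on the log2(TPM + 1) scale between days 0 and 4 (SE 0.30, adjusted p = 0.0334) and by 2.02 between days 4 and 8 (SE 0.30, adjusted p = 0.0268). Both libraries labelled SOX21-/- were above both wild-type libraries at days 0 and 8 and below both at day 4. The calls did not hold in 10 and 9 of 12 fits that left out 1 library, or in fits without the remaining day (adjusted p = 0.111 and 0.0603).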

How the results depend on the processing

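Of 919 alternative values for named genes, 850 kept their direction and side of the threshold, 64 lost the call, 4 gained it and 1 turned: PFKL at day 0, which ranged from -0.88 to 0.0094 over the fits leaving out 1 library, the highest without WT2. The day 4 genotype count of 1 became 2 with a filter at 5 TPM or with nuclear protein-coding genes only, and 0 with days 4 and 8 only or with only the libraries of the days compared. The day 8 count of 2 became 1 with moderation without the trend and 0 with only the libraries of the days compared. Leaving out 1 library gave 0 to 4 genes called at day 0, 0 to 1 at day 4 and 1 to 2 at day 8, 0 to 3 and 0 to 1 for the 2 interactions, 19 to 27 and 18 to 26 for day 4 against day 0 in S13/S23 and in wild type, and 10 to 20 and 3 to 10 for day 8 against day 4; a group left with 1 library is assumed to vary like the others. Libraries with the same line number did not deviate together across days (correlations -0.00603 to 0.0712). With that number as replicate block both interactions had 0 called (DDIT4 adjusted p = 0.0769 and 0.0656), and each was also 0 when fitted without the third day (only the libraries of the days compared, or days 4 and 8 only); the block left 23 and 27 called for day 4 against day 0 and 17 and 6 for day 8 against day 4. No paired analysis of the genotypes was possible because S13, S23 and WT1, WT2 share no number. Summing overlapping antisense genes, chosen after seeing the data, gave 10 higher and 13 lower in wild type for day 4 against day 0. Shares of all tested genes called under each alternative are not given here, so these counts show only how the calls moved. The cause of these changes was not tested. Because depth is unknown, the counting error of low values such as those of CA9, ADM and NDRG1 cannot be given.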

Other observations

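SLC7A11, the cystine transporter of the amino acid stress response, had 1.199 and 1.26 TPM in S13/S23 at day 8, against 6.11 and 7.88 TPM in WT1/WT2, a log2 difference of -1.83 (SE 0.18, adjusted p = 0.00227). It was the 1 gene called of 18 tested targets of the stress factor ATF4, whose median difference was -0.13. The neural progenitor markers, 11 tested, had 0 called between the genotypes at day 0. In S13/S23, 3 were called lower and 0 higher at day 4, and 2 lower and 1 higher at day 8. Estimates above wild type numbered 5 at day 4 and 6 at day 8. Shares of all tested genes called lower and higher were 0.536% and 0.239% at day 4, and 1.32% and 1.47% at day 8. Of 4 tested endothelial and blood markers, 1 was called lower at day 8, TEK, a receptor of blood vessel cells (-1.03, adjusted p = 0.0285), and the summed level of the list was 7.01 to 8.16 TPM in S13/S23, against 13.8 to 15.0 TPM in WT1/WT2. Of the mesoderm and endoderm markers 1 was tested and 0 were called between the genotypes, and the list summed to at most 2.92 TPM in any library.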
